A study of Mus musculus with 9 samples.

Results

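The 10 genes Npas2, Clock, Per1, Per2, Per3, Cry1, Cry2, Dbp, Tef and Hlf of the circadian clock were examined in the striatum of mice that model Huntington disease. They were taken by symbol from the 18193 genes that the platform annotation named, and 25 of the 45101 probe sets on each array named exactly 1 of them. Where a gene had several probe sets, the one with the highest mean over the 9 arrays is given first and the others are given after it. RNA came from the striatum of 4 wild-type mice, numbered 46, 47, 49 and 66, and 5 R6/2 mice, called R62_86, R62_95, R62_105, R62_107 and R62_109. All were female, 12 weeks old and on a C57Bl/6 and CBA background. R6/2 mice carry exon 1 of human huntingtin with an expanded CAG repeat as a transgene, driven by human huntingtin promoter sequence, in addition to their own huntingtin genes. R62_86 was 85 days old, like every wild-type mouse, and the remaining 4 R6/2 mice were 83 days old, per the labels. No hour of dissection was given in the sources used here, and the levels of most of these genes follow the time of day.

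In the clock, a heterodimer of BMAL1 (gene Arntl) with CLOCK or with its close relative NPAS2 binds E-boxes and activates the Period and Cryptochrome genes, whose products return to the nucleus and inhibit that heterodimer. The same heterodimer drives Dbp, Tef and Hlf, which encode the PAR bZIP transcription factors and bind D-boxes in output genes. NPAS2 is found mainly in the forebrain, striatum included, where it can stand in for CLOCK. Per1 is in addition induced by cyclic AMP and neuronal activity through a cyclic AMP response element (CRE).

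Of the 10 genes, Npas2, Dbp, Tef and Hlf fell in R6/2 striatum, 0 rose, and the other 6 did not pass the threshold (limma, Benjamini-Hochberg adjusted p of 0.05 over all genes). Over all genes tested, 7.57% were lower and 9.28% were higher past the same threshold. Npas2 fell to 40.3% of its wild-type level, Dbp to 61.7%, Hlf to 65.8% and Tef to 77.3%. In these 4 genes, and in none of the other 6 by their brightest probe set, the R6/2 mice did not overlap the wild-type mice. Over all genes, 8.09% were lower without overlap and 9.18% were higher without overlap. The median log2 difference (R6/2 minus wild-type) of the 10 genes was -0.27 and that of all genes was -0.02.

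**Figure D1:**
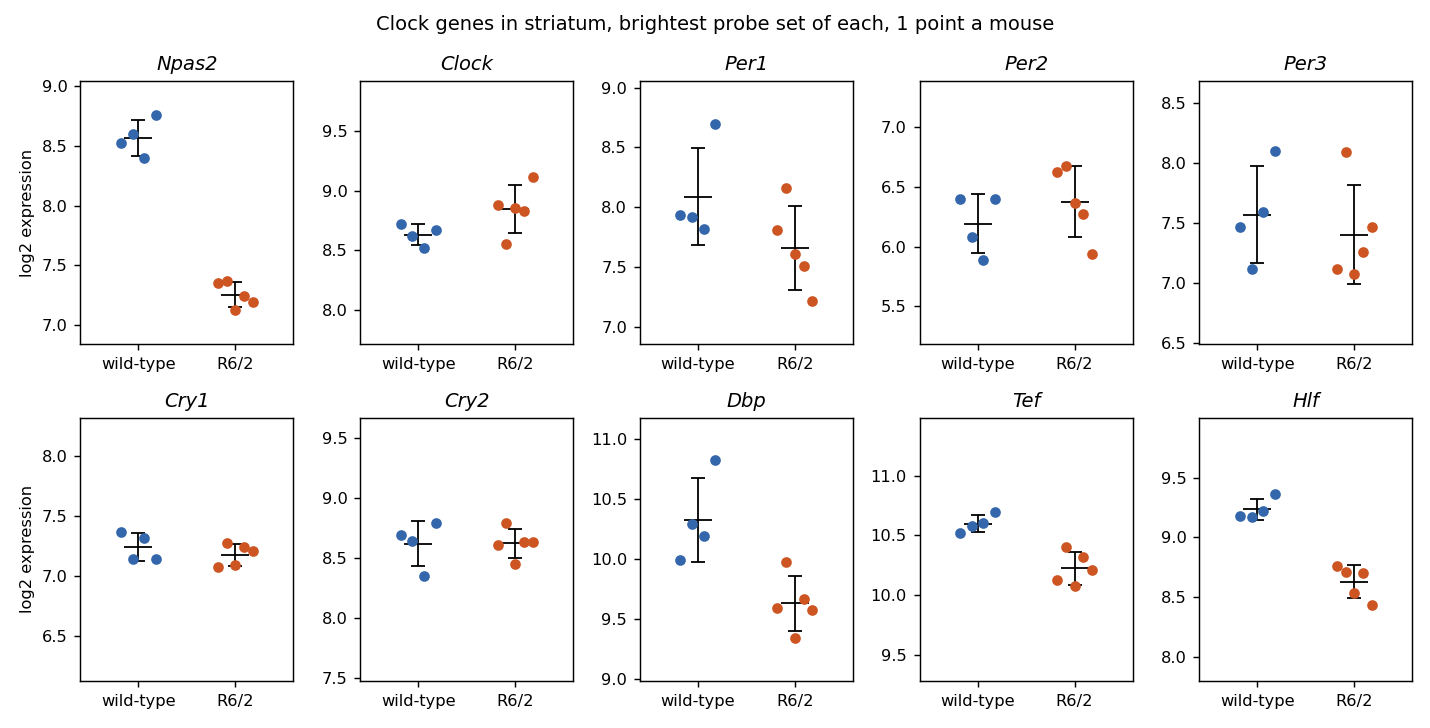
Log2 expression (y axis) of the brightest probe set of each of the 10 clock genes, with 1 point for each of the 4 wild-type (blue) and 5 R6/2 mice (orange), and bars for the mean and SD. Each panel spans the same range of log2 units around its own values. The R6/2 points lie below all wild-type points for Npas2, Dbp, Tef and Hlf and overlap them in the other panels.

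The promoters of the 4 genes that fell are shown because these genes moved in the same direction. RefSeq windows (GRCm38.p6) from 250 bases before to 50 after an annotated start were at hand for 9 of the 10 genes, 13 windows in all, but not for Per2. Capitals mark matches, on either strand, to the E-box CACGTG, its form CACGTT, the D-boxes TTATGTAA and TTACGTAA, the CRE TGACGTCA, its shorter form CGTCA, and AGGTCA, the core of elements bound by the ROR and REV-ERB receptors. The full CRE holds the shorter form on both strands.
Npas2, chr1:39194022-39194321, plus strand: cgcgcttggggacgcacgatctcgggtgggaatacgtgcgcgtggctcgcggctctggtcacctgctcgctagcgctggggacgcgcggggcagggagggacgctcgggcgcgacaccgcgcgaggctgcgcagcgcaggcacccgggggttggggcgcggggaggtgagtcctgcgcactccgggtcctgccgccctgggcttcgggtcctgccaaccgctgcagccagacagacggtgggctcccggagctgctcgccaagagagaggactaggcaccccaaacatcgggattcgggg
Dbp, chr7:45704997-45705296, plus strand: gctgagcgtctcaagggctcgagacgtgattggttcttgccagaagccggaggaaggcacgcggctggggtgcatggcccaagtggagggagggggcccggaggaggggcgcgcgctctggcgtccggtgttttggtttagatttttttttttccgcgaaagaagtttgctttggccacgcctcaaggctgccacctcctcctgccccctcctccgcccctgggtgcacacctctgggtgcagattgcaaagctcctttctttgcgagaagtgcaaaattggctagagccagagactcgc
Tef, chr15:81802423-81802722, plus strand: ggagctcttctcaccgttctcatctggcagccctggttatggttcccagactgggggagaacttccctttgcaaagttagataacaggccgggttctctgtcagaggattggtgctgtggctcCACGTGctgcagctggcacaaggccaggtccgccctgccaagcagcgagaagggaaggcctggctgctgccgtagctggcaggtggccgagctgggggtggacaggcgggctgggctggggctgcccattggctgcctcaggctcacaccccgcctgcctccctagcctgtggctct
Tef, chr15:81811164-81811463, plus strand: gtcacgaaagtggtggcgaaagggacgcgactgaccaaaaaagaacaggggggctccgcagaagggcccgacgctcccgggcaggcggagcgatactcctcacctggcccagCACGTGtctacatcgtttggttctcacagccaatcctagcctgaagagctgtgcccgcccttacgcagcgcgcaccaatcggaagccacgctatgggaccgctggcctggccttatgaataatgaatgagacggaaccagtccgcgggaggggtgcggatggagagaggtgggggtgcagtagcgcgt
Hlf, chr11:90390868-90391167, minus strand: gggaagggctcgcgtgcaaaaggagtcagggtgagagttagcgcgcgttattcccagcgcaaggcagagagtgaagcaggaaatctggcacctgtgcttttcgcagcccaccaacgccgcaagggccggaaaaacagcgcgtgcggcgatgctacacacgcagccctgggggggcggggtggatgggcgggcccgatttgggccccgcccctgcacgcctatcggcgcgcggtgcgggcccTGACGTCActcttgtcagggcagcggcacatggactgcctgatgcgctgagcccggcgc
The 4 genes shared none of these motifs in their windows. Both Tef windows held CACGTG, the first at position -127 and the other at -138 relative to the start, by their first base. The Hlf window held the full CRE from position -9. The Npas2 and Dbp windows had 0 matches, which says only that these letters are not in these 300 bases. The Npas2 window lies wholly within the span of the gene, which begins at chr1:39193702, so bases before the gene were not searched. Only a part of the Dbp window lies before the gene, which begins at chr7:45705100. Among the other genes, CACGTG lay in windows of Per1 and Cry1, CACGTT in those of Cry1 and Cry2, and TTATGTAA in that of Per3, where it occurred at -205 and at -158. CGTCA lay in windows of Per1, Cry1 and Cry2, and AGGTCA in those of Clock and Per1. Of all 32851 windows of this length, 7.15% held CACGTG, 4.68% CACGTT, 0.938% TTATGTAA, 0.119% TTACGTAA, 1.79% the full CRE, 20.8% CGTCA and 16.3% AGGTCA.

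Npas2 (chr1:39193702-39363240 in GRCm38.p6), the partner of BMAL1 that is enriched in the forebrain, had the lowest difference of the 10. Its log2 expression was 8.53, 8.60, 8.39 and 8.75 in wild-type mice 46, 47, 49 and 66, and 7.35, 7.37, 7.13, 7.24 and 7.19 in R62_86, R62_95, R62_105, R62_107 and R62_109. All 5 R6/2 mice lay more than 1 log2 unit below the lowest wild-type mouse. The means were 8.57 ± 0.15 (SD, n = 4) and 7.26 ± 0.10 (SD, n = 5), a log2 difference of -1.31 ± 0.08 (SE, adjusted p 3.19e-05), which ranked 72nd from the lowest of the 18193 genes. The other Npas2 probe set, 1421036_at, fell by 0.96 ± 0.15 (adjusted p 0.00382 over all probe sets). It was at least 7.09 in each wild-type mouse and 5.96 to 6.66 in R6/2 mice, so that the groups did not overlap here either. R62_95, the highest R6/2 mouse by the brighter probe set, was the lowest by this one.

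Clock, the closest relative of Npas2 and its alternative in the heterodimer, did not pass the threshold in either direction. Its brightest probe set, 1418659_at, read 8.72, 8.62, 8.52 and 8.67 in wild-type mice 46, 47, 49 and 66, and 8.88, 8.55, 8.85, 8.83 and 9.11 in R62_86, R62_95, R62_105, R62_107 and R62_109. By this probe set the groups overlapped through R62_95 alone. The log2 difference was 0.21 ± 0.10 (SE, adjusted p 0.174), with a 95% interval from -0.01 to 0.43. One of the 4 Clock probe sets, 1418660_at, rose by 0.28 ± 0.06 (adjusted p 0.0159), from 8.48 to 8.51 in wild-type to 8.68 to 8.86 in R6/2 mice. The remaining ones gave 0.20 ± 0.08 (1439314_at, adjusted p 0.162) and -0.01 ± 0.07 (1435775_at, adjusted p 0.945). By 1439314_at the groups did not overlap either. R62_95 was the highest R6/2 mouse by that probe set, at 7.46, and read 8.85 by 1418660_at, so it was not low by every Clock probe set. Clock passed as higher when its probe sets were averaged (0.17, adjusted p 0.0287, where 7.31% of all genes were higher) and without R62_95 (0.29, adjusted p 0.0382, where 8.78% were higher).

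The difference between these relatives was tested within each mouse. Npas2 minus Clock was -0.19, -0.02, -0.13 and 0.09 in wild-type mice 46, 47, 49 and 66, and -1.53, -1.18, -1.72, -1.59 and -1.92 in R62_86, R62_95, R62_105, R62_107 and R62_109. Because each value subtracts readings of different probe sets, only its change between genotypes carries meaning. That change was -1.52, with no overlap of the groups (exact two-sided permutation p = 0.00794, the smallest that 126 splits allow, and 0.0317 adjusted over 8 pairs of related genes). With the mean of each gene's probe sets it was -1.31 and did not pass (exact permutation, adjusted p 0.0635). Its unadjusted p was again the smallest possible, which cannot pass the adjustment over 8 pairs unless other pairs are low as well.

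**Figure D2:**
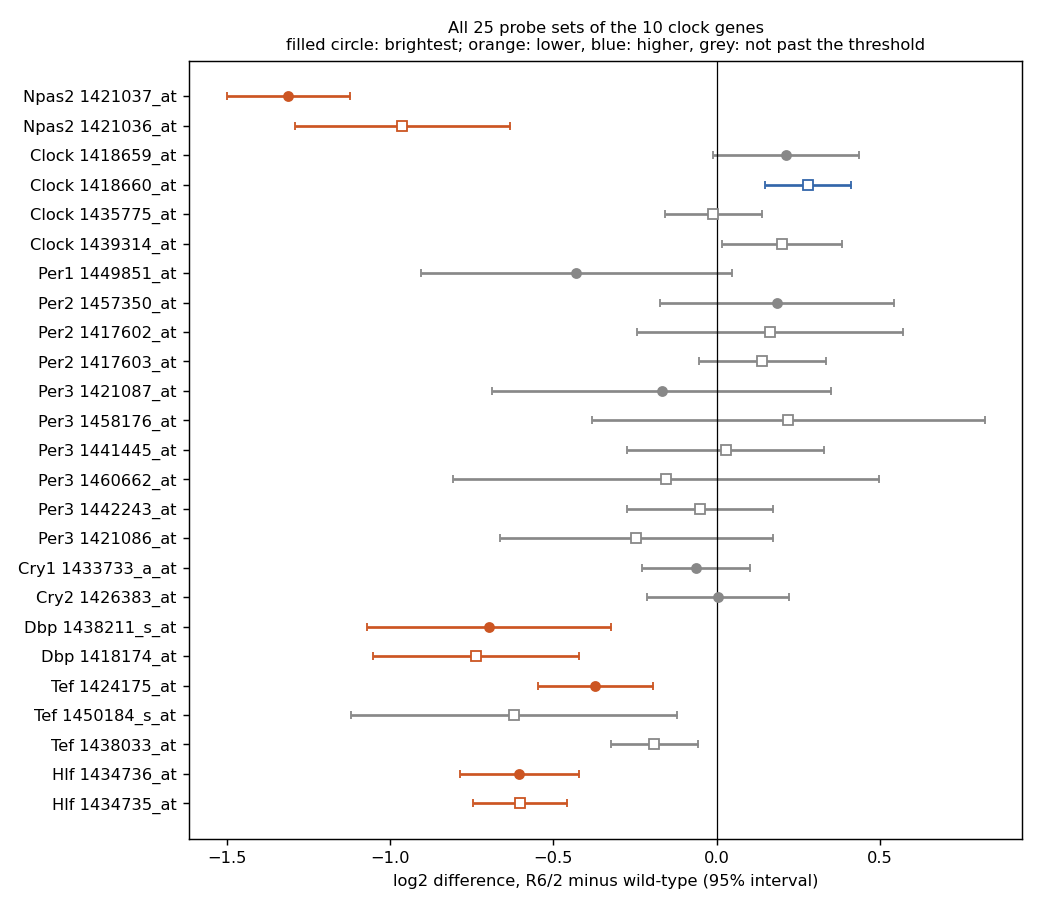
Log2 difference (R6/2 minus wild-type, x axis) with its 95% interval for each of the 25 probe sets of the 10 clock genes. Filled circles are the brightest probe set of a gene and open squares the others. Both Npas2, Dbp and Hlf probe sets and 1 of 3 for Tef passed as lower (orange), 1 of 4 for Clock passed as higher (blue), and the rest, drawn in grey, did not pass.

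Among the repressors, Per1, Per2, Per3, Cry1 and Cry2, none of 12 probe sets passed the threshold (limma, adjusted over all probe sets). In all, 7 of the 25 probe sets of the 10 genes were lower, against 4.57% of all probe sets, and 1 was higher, against 5.83%. Per1, a Period gene induced through a CRE, read 7.93, 7.92, 7.81 and 8.69 in wild-type mice 46, 47, 49 and 66, and 7.81, 8.16, 7.61, 7.51 and 7.22 in R62_86, R62_95, R62_105, R62_107 and R62_109. Wild-type 66 stood well above the other wild-type mice, and R62_95 was the highest R6/2 mouse. The log2 difference was -0.43 ± 0.21 (SE, adjusted p 0.190), with an interval from -0.89 to 0.03, and it was -0.23 (adjusted p 0.431) without wild-type 66.

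Per2, the other light- and activity-responsive Period gene, lay at 6.40, 6.08, 5.89 and 6.40 in wild-type mice 46, 47, 49 and 66, and at 6.62, 6.68, 6.37, 6.28 and 5.94 in R62_86, R62_95, R62_105, R62_107 and R62_109. The groups overlapped, with a log2 difference of 0.18 ± 0.16 (adjusted p 0.463, interval -0.16 to 0.53), and its other probe sets gave 0.16 ± 0.18 and 0.14 ± 0.09. Leaving out 1 mouse moved it between 0.084 (without wild-type 49) and 0.29 (without R62_109), with no call. Per3, whose product is the least needed of the PER proteins for rhythm itself, was 7.47, 7.12, 7.60 and 8.10 in wild-type mice 46, 47, 49 and 66, and 7.12, 8.09, 7.08, 7.26 and 7.47 in R62_86, R62_95, R62_105, R62_107 and R62_109. Wild-type 66 and R62_95 were the high mice of their groups and the groups overlapped. Per3 gave -0.17 ± 0.23 (adjusted p 0.657, interval -0.67 to 0.33), and its 6 probe sets ranged from -0.25 to 0.22, with signs in both directions. It was 0.0084 without wild-type 66, -0.34 without R62_95, -0.32 without wild-type 47 and 0.19 with the cortex marker mean as a covariate, and did not pass in any of these.

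By their brightest probe sets, Per1 and Per2 differed from each other in how they stood between genotypes. Per1 minus Per2 was 1.54, 1.83, 1.92 and 2.30 in wild-type mice 46, 47, 49 and 66, and 1.19, 1.49, 1.24, 1.23 and 1.28 in R62_86, R62_95, R62_105, R62_107 and R62_109. The groups did not overlap, although the gap between wild-type 46 and R62_95 was narrow. This difference changed by -0.61 (exact permutation p = 0.00794, adjusted 0.0317). With the mean of each gene's probe sets over all 9 mice it was -0.59 and did not pass (exact permutation, adjusted p 0.0952). Per1 minus Per3 changed by -0.26 (exact permutation p = 0.270, adjusted 0.360) and Per2 minus Per3 by 0.35 (exact permutation p = 0.254, adjusted 0.360).

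The Cryptochrome genes, whose products are the main inhibitors of the heterodimer, differed least. Cry1 was 7.37, 7.14, 7.31 and 7.14 in wild-type mice 46, 47, 49 and 66, and 7.07, 7.28, 7.09, 7.24 and 7.21 in R62_86, R62_95, R62_105, R62_107 and R62_109. Its log2 difference was -0.06 ± 0.07 (adjusted p 0.599), with an interval from -0.23 to 0.10. Cry2 was 8.69, 8.64, 8.35 and 8.79 in wild-type mice 46, 47, 49 and 66, and 8.60, 8.80, 8.45, 8.63 and 8.63 in R62_86, R62_95, R62_105, R62_107 and R62_109. It gave 0.0039 ± 0.097 (adjusted p 0.983, interval -0.21 to 0.22), and its sign turned under quantile normalization (-0.02) and under centring on the median (-0.01) or on housekeeping genes (-0.10). The sign also turned with array weights (-0.07), with age as a covariate (-0.01), without wild-type 49 (-0.09) and without R62_95 (-0.04). Cry1 minus Cry2 changed by -0.07 (exact permutation p = 0.659, adjusted 0.659).

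**Figure D3:**
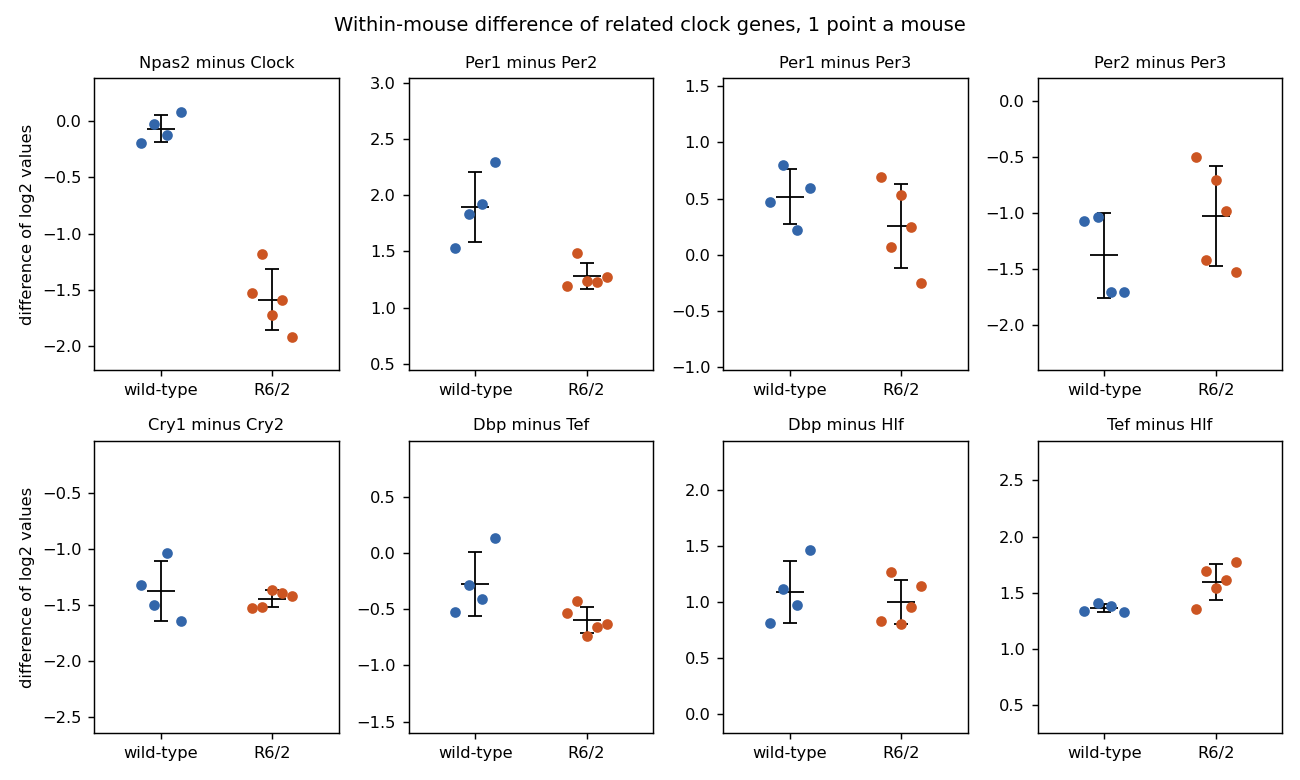
Within-mouse difference of log2 values (y axis) for 8 pairs of related clock genes, with 1 point for each wild-type (blue) and R6/2 mouse (orange) and bars for the mean and SD. The groups are apart for Npas2 minus Clock, where they lie at -0.19 to 0.09 and -1.92 to -1.18, and for Per1 minus Per2, where they lie at 1.54 to 2.30 and 1.19 to 1.49.

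The 3 PAR bZIP genes all fell. Dbp (chr7:45705100-45710203), among the clock outputs of highest amplitude, was 9.99, 10.29, 10.20 and 10.82 in wild-type mice 46, 47, 49 and 66, and 9.59, 9.98, 9.34, 9.66 and 9.58 in R62_86, R62_95, R62_105, R62_107 and R62_109. The highest R6/2 mouse, R62_95, reached almost to the lowest wild-type mouse, 46. Dbp fell by 0.70 ± 0.16 (SE, adjusted p 0.0155). The suffix of its brightest probe set, 1438211_s_at, marks probes that can match more than 1 transcript. The other Dbp probe set, 1418174_at, fell by 0.74 ± 0.14 (adjusted p 0.0107).

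Tef (chr15:81802673-81826863), the thyrotroph embryonic factor, was 10.52, 10.58, 10.60 and 10.69 in wild-type mice 46, 47, 49 and 66, and 10.12, 10.40, 10.07, 10.32 and 10.21 in R62_86, R62_95, R62_105, R62_107 and R62_109. The wild-type mice lay close together and above every R6/2 mouse. Tef fell by 0.37 ± 0.08 (adjusted p 0.00985), while its other probe sets gave -0.62 ± 0.22 (1450184_s_at, adjusted p 0.114) and -0.19 ± 0.06 (1438033_at, adjusted p 0.0714). In both of these the groups did not overlap, and R62_95 read 7.06 in the former against 7.94 to 8.36 in the other R6/2 mice.

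Hlf (chr11:90336535-90390917), the hepatic leukaemia factor gene, had the smallest p of the PAR bZIP genes. It was 9.18, 9.17, 9.22 and 9.36 in wild-type mice 46, 47, 49 and 66, and 8.76, 8.71, 8.53, 8.70 and 8.44 in R62_86, R62_95, R62_105, R62_107 and R62_109. The groups were well apart, and neither wild-type 66 nor R62_95 stood as far from its group as in Dbp. Hlf fell by 0.60 ± 0.08 (adjusted p 0.000912) and its other probe set by 0.60 ± 0.06 (adjusted p 0.000767). Whether the 3 genes fell by different amounts was not settled at this number of mice. Dbp minus Tef changed by -0.32 and Tef minus Hlf by 0.23 (exact permutation p = 0.0317 each, adjusted 0.0635), and Dbp minus Hlf by -0.09 (exact permutation p = 0.556, adjusted 0.635).

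The mice of a genotype also differed from each other along these genes. By the brightest probe sets, wild-type 66 was the highest wild-type mouse for 8 of the 10 genes, all but Clock and Cry1, whereas it was the highest of the 4 for 21.2% of all genes. By the same probe sets, R62_95 was the highest R6/2 mouse for 8 of the 10, all but Clock and Hlf, against 32.2% of all genes. Other probe sets did not always put these mice highest. R62_95 was the lowest R6/2 mouse by Npas2 1421036_at and Tef 1450184_s_at and 1438033_at, and the highest by Dbp 1418174_at. Relative to the mean of its genotype, wild-type 66 was higher by 0.60 for Per1, 0.53 for Per3 and 0.50 for Dbp, and R62_95 by 0.50, 0.69 and 0.35. Arntl went the other way and was lowest in these same mice, by -0.19 and -0.25. Of the REV-ERB genes, Nr1d1 showed no such shared direction, at 0.29 in wild-type 66 but at -0.13 in R62_95, its lowest R6/2 mouse. Nr1d2 was above its genotype mean in both mice, at 0.14 and 0.03, the latter only slightly. Both mice and Arntl were singled out after their values were seen. Leaving out wild-type 66 changed the Dbp difference to -0.53 (adjusted p 0.0295), and leaving out R62_95 made it more negative, at -0.78.

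**Figure D4:**
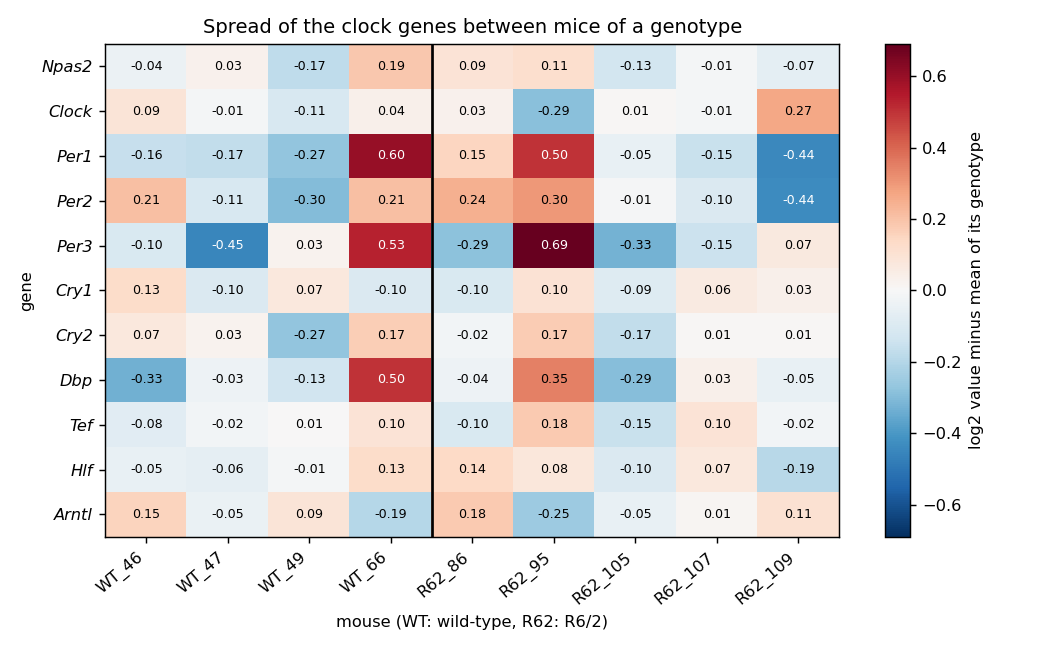
Log2 value minus the mean of its genotype (colour and number in each cell) for the 10 clock genes and Arntl (rows) in each mouse (columns, wild-type left of the line). Wild-type 66 and R62_95 carry the highest values for Per1, Per3 and Dbp and the lowest for Arntl.

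Markers of some tissues and cell types passed the threshold between genotypes and those of others did not, and all are given beside these results. Spiny projection neurons are the main neurons of the striatum, and 17 of 18 measured markers fell, with a mean log2 value of 11.27 to 11.52 in wild-type and 9.46 to 10.31 in R6/2 mice. In bulk tissue, fewer cells of a type and less RNA per cell cannot be told apart. Subtracting this mean from Npas2 left -2.78 ± 0.09 for wild-type mice (SD, n = 4) and -2.74 ± 0.26 for R6/2 mice (SD, n = 5), a change of 0.04 (exact permutation p = 0.786), so a difference between the fall of Npas2 and the mean fall of these markers (-1.35) was not detected. For cortex projection neurons, 4 of 11 markers rose while 1 fell (6.41 to 7.60 against 7.21 to 8.18), for choroid plexus 0 of 11 passed (at most 8.35, in wild-type 66, against 4.98 to 6.81), and for astrocytes 7 of 10 fell (9.74 to 9.94 against 9.44 to 9.61). Of 11 microglia markers 5 fell (7.59 to 8.07 against 7.09 to 7.51), and of 9 oligodendrocyte markers 3 fell (10.22 to 10.50 against 9.92 to 10.54). Of the endothelial and mural markers 0 of 10 passed (7.09 to 7.44 against 7.12 to 7.50), and of the blood markers 0 of 2. The blood mean still did not overlap between the groups (4.72 to 4.86 against 4.50 to 4.69). The shares over all genes were 7.57% lower and 9.28% higher. Wild-type 66 had the lowest cortex and the highest choroid plexus mean of the wild-type mice, and R62_95 the second lowest R6/2 cortex mean. The part of these tissues in the clock gene results was not tested beyond the fits that follow.

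With the cortex marker mean as a covariate Npas2 alone of the 10 passed, at -1.24 ± 0.12 (adjusted p 0.00245), while 1.42% of all genes were lower. Hlf gave -0.46 ± 0.10 (adjusted p 0.0525), Dbp -0.32 ± 0.18 (adjusted p 0.401) and Tef -0.22 ± 0.10 (adjusted p 0.286). The cortex marker mean was itself higher on average in R6/2 mice (exact permutation p = 0.0397), so this fit cannot fully separate it from genotype. Without the 3 arrays highest in choroid plexus markers (wild-type 47 and 66, and R62_107), Npas2 (adjusted p 0.00862) and Hlf at -0.59 (adjusted p 0.0327) passed, against 2.69% of all genes, whereas Dbp at -0.47 (adjusted p 0.150) and Tef at -0.36 (adjusted p 0.111) did not. With age as a covariate Npas2 alone passed, at -1.22 ± 0.14 (adjusted p 0.0199), against 0.143% of all genes. Genotype and age can hardly be told apart there, since R62_86 was the only R6/2 mouse of the wild-type age. Dbp was -0.73 (adjusted p 0.303), Tef -0.47 (adjusted p 0.170) and Hlf -0.47 (adjusted p 0.175) in that fit. Dbp also did not pass without moderation of the variance (adjusted p 0.0654).

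The genes whose pattern over the 9 mice was most like that of Npas2 were Pou3f1, Atp2b2, Ttll11, Hbegf and Sec14l1, taken from the 9088 brighter genes by the highest Pearson r of their log2 values. Their r lay between 0.991 and 0.997, and since they were picked for this likeness, their being lower in R6/2 mice was fixed by the choice and is a description. For the deviations from the genotype means, r was 0.98 for Pou3f1, a POU domain transcription factor gene, 0.89 for Atp2b2, a calcium pump gene, 0.88 for Sec14l1, 0.75 for Ttll11 and 0.70 for Hbegf, an EGF family growth factor gene. The choice, made over the same 9 mice, also favoured high values of this r, so it too is a description. All values come from the same arrays, so the scaling of an array moves each gene of such a pair. Pou3f1 was 9.61 to 10.03 in wild-type and 8.59 to 8.89 in R6/2 mice, a log2 difference of -1.04 ± 0.09 (SE). That of Hbegf was -1.38 ± 0.09 and that of Ttll11 -0.55 ± 0.06, or -0.09 with the mean of the Ttll11 probe sets.

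Of 34 further genes of the clock pathway 30 were measured, and 3 fell and 3 rose past the threshold, against 7.57% and 9.28% of all genes, with a median log2 difference of 0.12. Arntl, which encodes BMAL1, the obligate partner of CLOCK and NPAS2, was 8.43, 8.23, 8.37 and 8.08 in wild-type mice 46, 47, 49 and 66, and 7.64 in R62_95 and 7.85 to 8.08 in the other R6/2 mice. The groups did not overlap, but wild-type 66 and R62_86 nearly met. Arntl fell by 0.38 ± 0.10 (adjusted p 0.0249), and its other probe set by 0.42 ± 0.11 (adjusted p 0.0342). This call was lost in 8 of 20 alternatives. With age as a covariate the log2 difference shrank to -0.20 (adjusted p 0.640). In the others it stayed between -0.51 and -0.33: without wild-type 46 (-0.33, adjusted p 0.0657), 47 (-0.40, 0.0502), 49 (-0.35, 0.0557) or R62_105 (-0.37, 0.0567), without moderation (-0.38, 0.0675), with the cortex marker mean as a covariate (-0.51, 0.0888) and without the 3 choroid-rich arrays (-0.51, 0.0698). Among the other partners and relatives, Arntl2, Bhlhe40 and Bhlhe41 did not pass.

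Of the 5 measured genes of the ROR and REV-ERB loop and its D-box counterpart, 0 passed by limma, and 2 had an unadjusted p under 0.05. The REV-ERB genes, which encode repressors of Arntl, gave opposite signs, with Nr1d1 at -0.29 ± 0.10 (adjusted p 0.0704) and Nr1d2 at 0.21 ± 0.07 (adjusted p 0.0616). The difference between these was not tested. Rora, Rorb and Nfil3, a repressor at D-boxes, lay between -0.11 and 0.12. Of 9 genes for kinases, ubiquitin ligases, a phosphatase and a deubiquitinase that act on PER, CRY or BMAL1, Csnk1d rose, and Usp2 and Ppp1cb fell. Csnk1d, the kinase that marks PER proteins for degradation, was 9.86 to 10.08 in wild-type and 10.23 to 10.39 in R6/2 mice, a rise of 0.33 ± 0.07 (adjusted p 0.00835) that did not pass after centring on housekeeping genes (0.23, adjusted p 0.151), nor with the cortex marker mean as a covariate (0.29, adjusted p 0.181). Csnk1d also did not pass with age as a covariate (0.36, adjusted p 0.234) or without the 3 choroid-rich arrays (0.28, adjusted p 0.114). Its relative Csnk1e gave 0.33 ± 0.12 (adjusted p 0.0885).

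Usp2, a deubiquitinase gene that is itself a clock output, was 8.94, 8.94, 8.98 and 9.06 in wild-type mice 46, 47, 49 and 66, and 8.26, 8.76, 8.34, 8.51 and 8.35 in R62_86, R62_95, R62_105, R62_107 and R62_109. R62_95 was again the highest R6/2 mouse. Usp2 fell by 0.54 ± 0.10 (adjusted p 0.0043) and its other probe set by 0.56 ± 0.15 (adjusted p 0.0436), but it did not pass with the cortex marker mean (-0.39, adjusted p 0.160) or age (-0.72, adjusted p 0.0893) as a covariate, or without the 3 choroid-rich arrays (-0.53, adjusted p 0.0803). Ppp1cb, a catalytic subunit of protein phosphatase 1, fell by 0.29 ± 0.08 (adjusted p 0.0238), but 1 of its probe sets gave 0.61 ± 0.18 (adjusted p 0.062), and averaging all of them gave 0.0086 (adjusted p 0.952). It also did not pass without wild-type 46 (adjusted p 0.0604) or 47 (0.0576), or under quantile normalization (-0.24, adjusted p 0.0715). The same held with age as a covariate (-0.23, adjusted p 0.488) and without the 3 choroid-rich arrays (-0.33, adjusted p 0.128). Of the 12 other modifiers, Creb1, which encodes the factor that binds the CRE of Per1, rose by 0.50 ± 0.06 (adjusted p 0.000434) and Sirt1, a deacetylase that acts on the clock heterodimer, by 0.33 ± 0.08 (adjusted p 0.0177). With the mean of its probe sets Creb1 gave 0.16 (adjusted p 0.153), and Sirt1 did not pass after centring on housekeeping genes (0.22, adjusted p 0.155) or with the cortex marker mean as a covariate (0.34, adjusted p 0.186). With age as a covariate neither Creb1 (0.39, adjusted p 0.117) nor Sirt1 (0.29, adjusted p 0.401) passed. Sirt1 did not pass without the 3 choroid-rich arrays either (0.26, adjusted p 0.157). Nono, a cofactor of PER1, gave 0.17 ± 0.05 (adjusted p 0.0511).

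**Figure D5:**
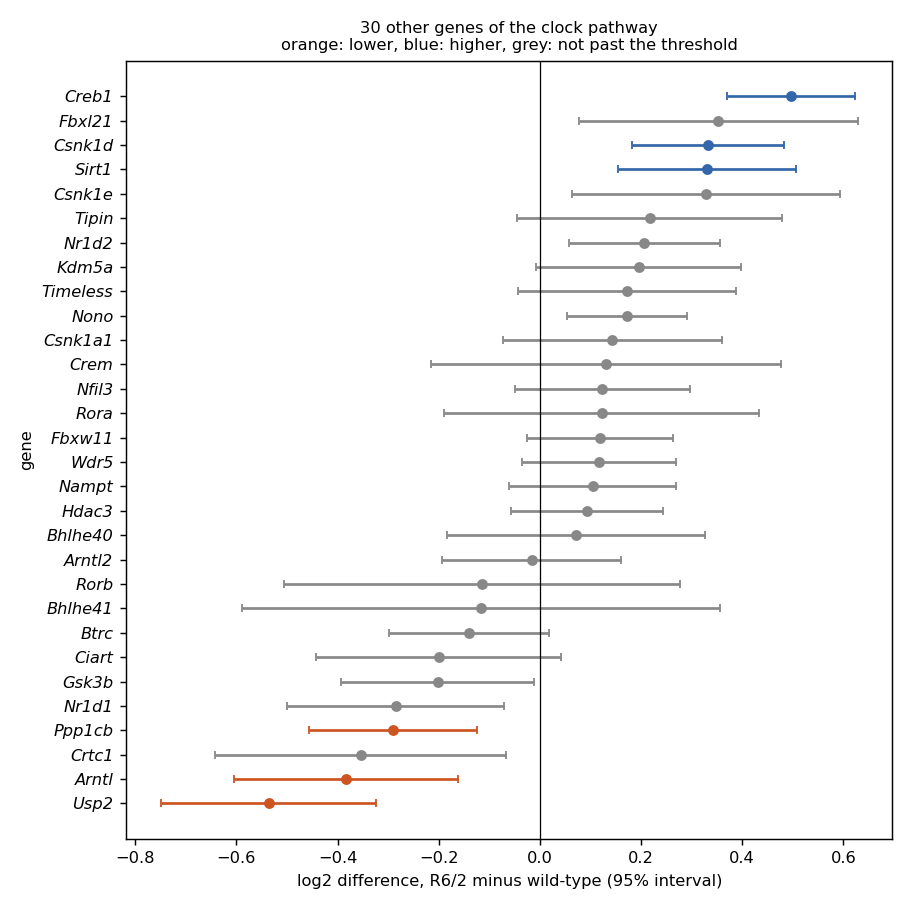
Log2 difference (R6/2 minus wild-type, x axis) with its 95% interval for the 30 measured genes of the clock pathway beyond the 10, by gene (y axis). Arntl, Usp2 and Ppp1cb passed as lower (orange), Creb1, Csnk1d and Sirt1 as higher (blue), and 24 did not pass (grey).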

How the data were processed

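Striatal RNA of 9 mice was hybridised to 1 whole-genome array each, with biotin label introduced during in vitro transcription, as the labels' protocols state. The authors deposited log2 expression values, for which the submitters' processing notes name RMA and affy. Which arrays were normalized as 1 set, and software versions, were not given in the sources used here. Array scaling means that a difference is read against the rest of the array. Array medians lay between 5.37 and 5.45, correlations between arrays between 0.979 and 0.995, and at most 3.93% of values were identical in 2 arrays. The number of arrays limits the precision.

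Of 35890 probe sets in the platform annotation, 932 named several genes and were not used by gene, and 9211 probe sets were not listed. Symbols were updated through gene identifiers to RefSeq (GRCm38.p6). Dim probe sets were kept. The R6/2 effect was estimated by limma 3.58.1 (lmFit and eBayes, R 4.3.3), genotype being the single term, over 18193 genes and separately over 45037 probe sets without the 64 controls. All tests were two-sided. Single within-mouse values were compared by an exact permutation test over the 126 splits into 4 and 5 mice. The 10 genes and all lists were chosen with earlier results of these data known. Genes beyond the 10 were named by rule: those of the pathway list past the threshold, the 3 next by p, and the 5 most like Npas2. Csnk1e, Rora, Rorb, Nfil3, Arntl2, Bhlhe40 and Bhlhe41 were named to complete their groups. Of the 34 pathway genes listed, 4 were not analysed here. The limma script was tested on simulated data.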

Additional observations from a re-analysis of the deposited data

Results flagged for a closer look

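For 50 sets of values (25 probe sets in each genotype), the highest or lowest mouse was compared with its group by the gap to its nearest neighbour (Dixon), and 4 stood out, where chance alone gives about 1 in 20. By Per1 probe set 1449851_at, wild-type 66 read 8.69 against 7.93 for the next wild-type mouse. By the other Npas2 probe set 1421036_at, wild-type 49 read 7.09 against 7.44. In the R6/2 mice, R62_95 read 6.57 against 6.17 by Per3 probe set 1441445_at, and R62_109 read 6.54 against 7.09 by Per3 probe set 1458176_at.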

How the results depend on the processing

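Npas2 stayed lower past the threshold in all 20 alternatives (-1.42 to -1.14, highest adjusted p 0.0199). Hlf did so in 18, Tef in 17 and Dbp in 16, and the exceptions are those given with these genes. Of the other members, Clock alone changed its call, in 2 of 20, and no call of the 10 reversed; Per2 had no value among the brighter 50% of genes. The number of the 10 that were lower was 4, but 1 with age, 1 with the cortex marker mean and 2 without the 3 choroid-rich arrays; leaving out each mouse kept it at 4. The number higher was 0, but 1 with the mean of probe sets, and 0 to 1 when each mouse was left out. Of the 30 further genes, the 3 lower became 5 with housekeeping centring, 0 with age, 1 with the cortex marker mean, 0 without the choroid-rich arrays and 1 to 4 with each mouse left out (1 without wild-type 46 or 47). The 3 higher became 5 in the brighter 50% of genes, 6 with quantile normalization, 6 with array weights, 1 with housekeeping centring, 0 with age, 1 with the cortex marker mean, 1 without the choroid-rich arrays and 3 to 6 with each mouse left out (6 without R62_95). The mean of its probe sets turned Ppp1cb to 0.0086. Centring on 5 housekeeping genes gave a median over all genes of -0.12 instead of -0.02, and 23.7% of all calls were then higher instead of 55.1%. The change of Npas2 minus Clock was -1.31 with the mean of probe sets (exact permutation, adjusted p 0.0635), -1.43 without the choroid-rich arrays (adjusted p 0.178) and -1.63 to -1.44 with each mouse left out (0.0476 to 0.114). That of Per1 minus Per2 was -0.59 (0.0952), -0.43 (0.178) and -0.73 to -0.48 (0.0476 to 0.114). The mean of probe sets used all 9 mice, so those lost calls are not due to fewer mice. For Npas2 minus Clock the unadjusted p was still the smallest that the splits allow. Its call was lost through the adjustment, because Per1 minus Per2 was no longer at that p. With mice left out, the exact tests can hardly pass after adjustment. Dbp minus Tef passed with quantile normalization (-0.35, adjusted p 0.0476) and without wild-type 46 (-0.41, adjusted p 0.0476), and ranged from -0.41 to -0.19 with each mouse left out. Tef minus Hlf passed with quantile normalization (0.28, adjusted p 0.0476) and ranged from 0.19 to 0.29. Apart from these, the cause of a changed call was not tested. No paired analysis was possible because the groups share no animal number.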
